A study of Mus musculus with 4 samples.

Results

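Transcripts of 10 mouse genes grouped under intestinal iron and calcium handling were examined in laser-captured crypts. Crypts are the epithelial pockets that hold stem cells, Paneth cells and dividing progenitors. The genes are Slc40a1, Heph, Cybrd1, Slc11a2, Slc46a1, Fth1, Tfrc, Trpv6, S100g and Atp2b1. They were taken by name, with every probe set (a group of array probes for 1 transcript) that the platform annotation assigns to 1 of these symbols alone. This gave 24 of the 45101 probe sets on the array, for 10 of 18193 genes with such a probe set. Of the 24, 3 are built-in array controls for Tfrc that stood outside every fit. The 10 genes were selected on mutant and control signals of these same arrays, whose results were known, so their differences are given as a description, without a test.

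Crypts of control mice (2 arrays) were compared with crypts of beta-catenin mutants (2 arrays), both labelled as day 2, where the mutants had lost the gene through a tamoxifen-induced deletion 2 days earlier. RNA of every sample was amplified in 2 rounds before hybridisation to a single-colour array. The sources used here do not give the promoter that drives the recombinase, the strain, age and sex of the mice, the part of the intestine that was captured or whether controls received tamoxifen. Nothing in the labels ties a sample to a mouse of its own, so each SD is the spread of 2 samples that may be technical repeats. Each SE is that of the limma fit, which moderates a gene's variance with that of all probe sets and can therefore be smaller than the gene's own spread, as in S100g and Slc40a1.

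Dietary iron is reduced at the brush border by the reductase encoded by Cybrd1, enters the enterocyte through the metal transporter encoded by Slc11a2, is stored in ferritin and leaves at the basolateral side through ferroportin, the product of Slc40a1, with the ferroxidase hephaestin. Calcium takes a similar 3-step route, through the apical channel encoded by Trpv6, the cytosolic carrier calbindin-D9k encoded by S100g and the basolateral calcium pump encoded by Atp2b1. Both routes are best known from mature enterocytes of the duodenum, the most proximal part of the small intestine. Crypt cells also take up iron from the blood through the transferrin receptor, encoded by Tfrc, as dividing cells do in general.

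Promoter windows of RefSeq (build GRCm38.p6, 250 bases before to 50 after the annotated start) matched 7 of the 10 genes, with 10 windows in all. The windows of S100g, Trpv6, Slc46a1 and Cybrd1 are shown because, among the members with a window, these were at least 2-fold lower in the mutants by mean values. Capitals mark AGGTCA, a hexamer bound by the vitamin D receptor and other nuclear receptors, and TTTAT, a core of the sites of the intestinal CDX factors, on either strand.
S100g, chrX:162964550-162964849, minus strand: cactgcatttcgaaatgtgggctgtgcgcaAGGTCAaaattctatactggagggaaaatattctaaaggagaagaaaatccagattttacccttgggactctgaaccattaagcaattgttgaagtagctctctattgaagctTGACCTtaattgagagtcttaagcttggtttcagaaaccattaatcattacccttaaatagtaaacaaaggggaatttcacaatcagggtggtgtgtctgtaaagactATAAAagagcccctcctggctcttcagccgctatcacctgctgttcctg
Trpv6, chr6:41636356-41636655, minus strand: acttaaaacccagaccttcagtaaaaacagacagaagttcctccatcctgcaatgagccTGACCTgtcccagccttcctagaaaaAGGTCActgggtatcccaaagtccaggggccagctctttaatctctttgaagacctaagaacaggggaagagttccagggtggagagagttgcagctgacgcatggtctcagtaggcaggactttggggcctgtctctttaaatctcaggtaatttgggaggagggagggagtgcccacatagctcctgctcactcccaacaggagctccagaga
Slc46a1, chr11:78465451-78465750, plus strand: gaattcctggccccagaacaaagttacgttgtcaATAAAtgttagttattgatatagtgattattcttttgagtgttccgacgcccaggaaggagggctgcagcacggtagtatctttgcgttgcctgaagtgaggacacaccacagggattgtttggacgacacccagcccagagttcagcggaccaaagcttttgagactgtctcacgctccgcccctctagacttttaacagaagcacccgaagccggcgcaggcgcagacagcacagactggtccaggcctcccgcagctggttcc
Cybrd1, chr2:71117804-71118103, plus strand: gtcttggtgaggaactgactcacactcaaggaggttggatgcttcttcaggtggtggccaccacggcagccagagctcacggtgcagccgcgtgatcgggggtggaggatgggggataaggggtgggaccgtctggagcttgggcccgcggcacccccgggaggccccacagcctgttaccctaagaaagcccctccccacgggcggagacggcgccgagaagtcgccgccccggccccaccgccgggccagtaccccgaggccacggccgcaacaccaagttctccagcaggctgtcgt

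AGGTCA was in 2 of the 10 windows of the members, those of S100g and Trpv6, and in 16.3% of all 32851 promoter windows. The S100g and Trpv6 windows each held it 2 times, once on each strand. How many of all windows hold it 2 times was not counted. TTTAT was found in 3 of the 10 windows of the members (S100g, Slc46a1 and 1 of the 2 windows of Fth1), and in 40.0% of all windows. The TCF/LEF letters CTTTGAT, through which beta-catenin is recruited to DNA, were in 0 of the 10 windows and in 3.73% of all windows. The hypoxia response core ACGTG was in 3 of the 10, namely 1 window of Atp2b1 and both windows of Tfrc, which overlap and share 1 match, and in 19.6% of all windows. These counts describe letters in short windows and say nothing about binding.

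The epithelial markers Vil1 and Cdh1 were bright on all 4 arrays, with Vil1 signals of 3581 and 2477 in controls and 5592 and 3422 in mutants. The brighter probe set of Ctnnb1, the deleted gene, had signals of 4700 and 5997 in controls and 5229 and 3449 in mutants. Its log2 difference was -0.56 (SE 0.22), and a dimmer probe set gave 0.38 (SE 0.50); the sources used here do not name the deleted exons. Mutant replicate 1 stood apart through pancreatic acinar transcripts: Cpa1, a digestive carboxypeptidase, had a signal of 7832 there and at most 3.33 on the other arrays. The differences of the 10 genes and of the related iron and calcium genes are therefore also given without that array. Trimmed mean signals ranged from 111 to 169.5 between arrays, so the log2(signal + 5) values were quantile normalized, which gives each array the same distribution. All levels and differences below are on this scale unless called signals, which are the deposited MAS5 intensities.

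By mean values, 8 of the 10 genes were lower in mutant crypts and 2 were higher, where 49.3% of all genes that passed the filter were lower. The count of lower genes was 5 of 10 with the values as deposited, where 48.9% of all genes were lower. It was also 5 of 10 with median centring, where 39.4% of all genes were lower. In both settings Tfrc, Fth1 and Atp2b1 changed sign, so the larger count of 8 was seen with quantile normalization. The median difference over the 10 genes was -0.63, against 0.01 over all 11395 genes that passed the filter on dim probe sets. In 4 genes (S100g, Slc40a1, Cybrd1 and Trpv6) both mutant values lay below both control values, as they did in 19.2% of all genes. In the same 4 genes the difference was also at least 2-fold, as in 2.35% of all genes, and with a pseudocount of 32 it held for S100g and Slc40a1, as for 1.14% of all genes; Trpv6 was too dim for the filter and is not part of that background. In 1 gene, Slc11a2, both mutant values lay above both control values, as in 18.9% of all genes. Over all 22519 probe sets that were kept, 0.0% passed limma's test (adjusted p under 0.05), and 1415 had an unadjusted p under 0.05. Since the genes were chosen with this comparison known, these counts carry no inference. In bulk samples, fewer cells of a type and less RNA per cell cannot be told apart.

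**Figure D1:**
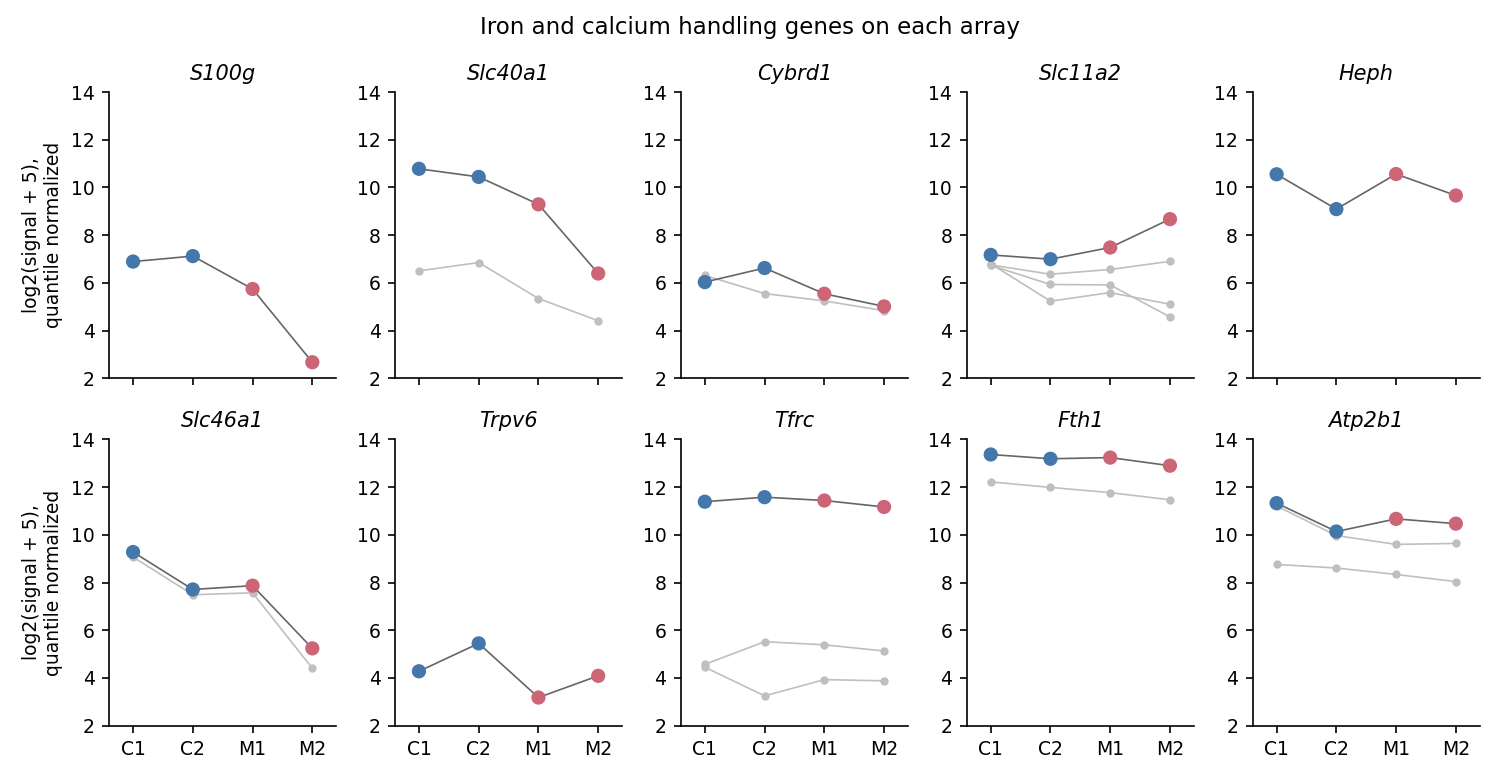
Level of each gene on each array, as quantile-normalized log2(signal + 5), for control replicates 1 and 2 (C1, C2, blue) and mutant replicates 1 and 2 (M1, M2, red); large points are the brightest probe set of a gene, grey points its other probe sets, and lines join the values of 1 probe set. S100g and Slc40a1 stood lowest in mutant replicate 2, at 2.67 and 6.39, while the brightest probe sets of Fth1 and Tfrc varied by less than 0.5 between arrays.

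Ferroportin, the only known cellular iron exporter, gave one of the largest differences among the members. The signals of the brighter Slc40a1 probe set (1417061_at) were 1604 and 1349 in controls and 819 and 63.1 in mutant replicates 1 and 2. Both mutants were below both controls, and the mutants differed from each other far more than the controls did. The control level was 10.61 ± 0.24 (SD, n = 2) on the log2 scale and the mutant level 7.84 ± 2.04 (SD, n = 2), which differ by -2.77 (SE 0.78). It was -4.16 without mutant replicate 1 and -1.31 without mutant replicate 2. The dimmer probe set (1448566_at) showed the same order of groups, with signals of 93.1 and 108.6 in controls against 38.5 and 14.2 in mutants. Its difference was -1.81 (SE 0.45).

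Heph encodes hephaestin, the membrane ferroxidase that works with ferroportin at the basolateral side. Its signals were 1361 and 530 in controls and 1976 and 685.1 in mutants. The groups overlapped, and in both groups replicate 1 was above replicate 2. The log2 difference was 0.29 (SE 0.51), and its sign turned to -0.44 without control replicate 2 and -0.15 without mutant replicate 1.

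Cybrd1 encodes duodenal cytochrome b, the apical ferric reductase. The signals of its representative probe set (1460604_at) were 68.7 and 91.6 in controls and 46 and 23.2 in mutants. Its log2 levels were 6.32 ± 0.42 (SD, n = 2) and 5.28 ± 0.37 (SD, n = 2), a difference of -1.04 (SE 0.42). The mutants lay below both controls in this probe set and in the other (1425040_at, -0.90, SE 0.45). The difference was -1.26 without mutant replicate 1 and stayed between -1.40 and -0.72 with any single array left out.

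Slc11a2, the gene of the divalent metal transporter DMT1, was covered by 4 probe sets that did not share a direction. The representative one (1417584_at) had signals of 144.3 and 121.4 in controls and 214.7 and 324.1 in mutants, a log2 difference of 0.99 (SE 0.45), with both mutants above both controls. That difference was 1.56 without mutant replicate 1 and 0.40 without mutant replicate 2. Probe set 1426441_at went the other way, with signals of 108.2 and 52.2 in controls and 62.9 and 16.3 in mutants, which overlap. After quantile normalization both mutants lay below both controls there, at 5.91 and 4.57 against 6.73 and 5.93. The difference of this probe set was -1.09 (SE 0.54). The remaining probe sets gave 0.18 (SE 0.37) for 1452078_a_at and -0.67 (SE 0.55) for 1441709_at, both with overlapping groups. The gene therefore had no single direction: the mean over its probe sets was -0.15. Slc11a2 is known to produce transcripts with different ends, and the annotation used here does not say which of them each probe set reads.

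Slc46a1 encodes a proton-coupled folate transporter that was first described as a haem carrier. The signals of its brighter probe set (1426715_s_at) were 575 and 207.7 in controls and 289.1 and 27.4 in mutants. Mutant replicate 1 lay between the controls and mutant replicate 2 lay far below all others, so the groups overlapped. The log2 difference was -1.94 (SE 0.82), -3.17 without mutant replicate 1 and -0.61 without mutant replicate 2. The other probe set (1426714_at) gave -2.29 (SE 0.93) with the same order of arrays. The controls alone differed by 1.57 in this gene, more than in S100g (0.23) or Slc40a1 (0.34).

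Genes of iron storage and of uptake from the blood showed small differences. Fth1, the ferritin heavy chain with ferroxidase activity, had signals of 8132 and 9819 in controls and 11150 and 8033 in mutants in its brighter probe set (1448771_a_at). Its log2 difference was -0.21 (SE 0.21), -0.38 without mutant replicate 1, and 0.08 with the values as deposited or 0.20 with median centring. The dimmer Fth1 probe set (1427021_s_at) had signals of 4125 and 3940 in controls and 4434 and 2580 in mutants, which overlap. After quantile normalization both mutants lay below both controls, with a difference of -0.48 (SE 0.24). The ferritin heavy chain gene has processed copies in the genome, so that its probes may bind more than 1 transcript.

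Tfrc, the transferrin receptor gene, had signals of 2393 and 2965 in controls and 3604 and 2025 in mutants in its representative probe set (1452661_at). The groups overlapped, and the log2 difference was -0.18 (SE 0.26), -0.32 without mutant replicate 1, with 0.02 for the values as deposited and 0.14 after median centring. Its other probe sets differed by 0.22 (SE 0.48) and, below the filter, by 0.05. The 3 array control probe sets for Tfrc were dim: the 3' set ranged from 19.4 to 29.5 in signal, the middle set from 0.49 to 15.2 and the 5' set from 1.78 to 10. For beta-actin the control set at the 5' end had 0.149 and 0.0567 times the signal of that at the 3' end in controls and 0.0945 and 0.0448 times in mutants, which describes how much RNA length was left after amplification.

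Along the calcium route, the largest difference was in the cytosolic carrier. S100g, read by 1 probe set (1448964_at), had signals of 119.9 and 133.7 in controls and 54.7 and 1.22 in mutants. Both mutants were below both controls, and in mutant replicate 2 the signal was near the floor, where 6.45% of probe sets on that array had no higher signal. The log2 level was 7.01 ± 0.16 (SD, n = 2) for control crypts and 4.21 ± 2.17 (SD, n = 2) for mutant crypts, which gives -2.80 (SE 0.84). The value was -4.24 without mutant replicate 1 and -1.29 without mutant replicate 2. It also moved with the pseudocount, to -3.53 with 1 and -1.59 with 32.

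Trpv6, the apical calcium channel gene, was dim on all arrays and did not pass the filter. Its signals were 18.9 and 34.7 in controls and 4.19 and 10.6 in mutants, with a log2 difference of -1.23 and no fitted error. The difference was -0.65 without control replicate 2, -1.81 without control replicate 1, -0.76 without mutant replicate 1 and -0.52 with a pseudocount of 32. Here mutant replicate 1 was the lowest array, unlike in S100g and Slc40a1. The pump gene Atp2b1 had signals of 2287 and 1109 in controls and 2128 and 1201 in mutants in its representative probe set (1428937_at), with overlapping groups. Its log2 difference was -0.16 (SE 0.40), 0.43 without control replicate 1, -0.27 without mutant replicate 1, and 0.01 or 0.13 with the values as deposited or median centring. The deposited signals of the other Atp2b1 probe sets overlapped between groups, at 2121 and 973.7 in controls and 1011 and 672.1 in mutants for 1428936_at, and at 409 and 384.9 against 406.4 and 205.2 for 1452969_at. After quantile normalization both mutants lay below both controls there, with differences of -0.97 (SE 0.42) and -0.49 (SE 0.34).

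**Figure D2:**
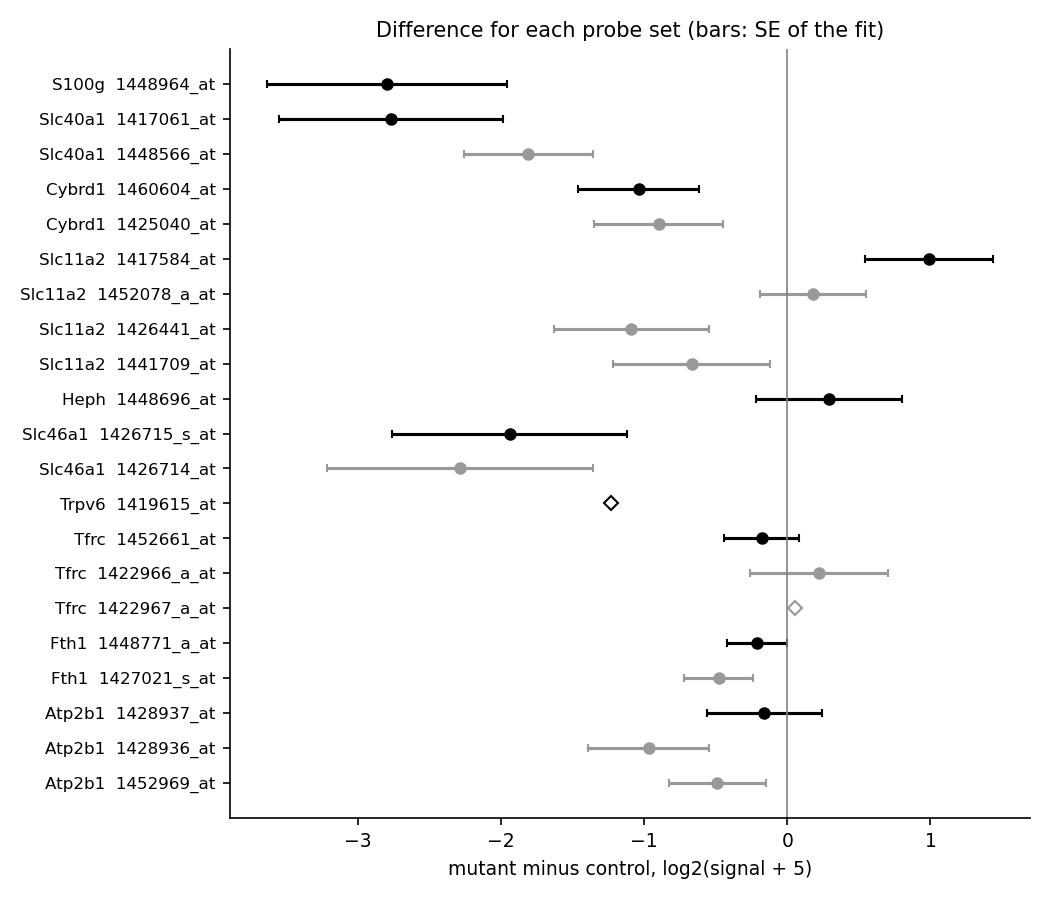
Difference between group means (mutant minus control, log2(signal + 5)) for the 21 probe sets of the 10 genes without the array controls; black marks the representative probe set of a gene, bars are the SE of the limma fit, and open diamonds are probe sets below the filter. All probe sets of Slc40a1, Cybrd1, Slc46a1, Fth1 and Atp2b1 lie below 0 on this scale, although the representative sets of Fth1 and Atp2b1 are above 0 with the values as deposited or median centring, and those of Slc11a2 lie on both sides.

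The size of the differences depended on which mutant array was used. Of the 10 genes, 6 had their lowest value in mutant replicate 2 (S100g, Slc40a1, Cybrd1, Slc46a1, Tfrc and Fth1), and 24.5% of all genes had their lowest value there. The mutant arrays differed by 3.07 in S100g, 2.89 in Slc40a1 and 2.64 in Slc46a1, against 0.53 in Cybrd1. Without mutant replicate 1, 9 of the 10 genes were lower, as were 49.8% of all genes, and 4 were at least 2-fold below both controls, as were 4.58%. These 4 were S100g, Slc40a1, Cybrd1 and Slc46a1, while Trpv6 was at -0.76. Without mutant replicate 2, 8 genes were lower, against 48.8% of all genes, and 3 were at least 2-fold below both controls, against 3.76%. These 3 were S100g, Slc40a1 and Trpv6, while Cybrd1 was at -0.80 and Slc46a1 at -0.61. Mutant replicate 2 also had the lowest trimmed mean signal (111) and the lowest beta-actin ratio (0.0448) of the 4 arrays. The part of these in the differences was not tested.

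**Figure D3:**
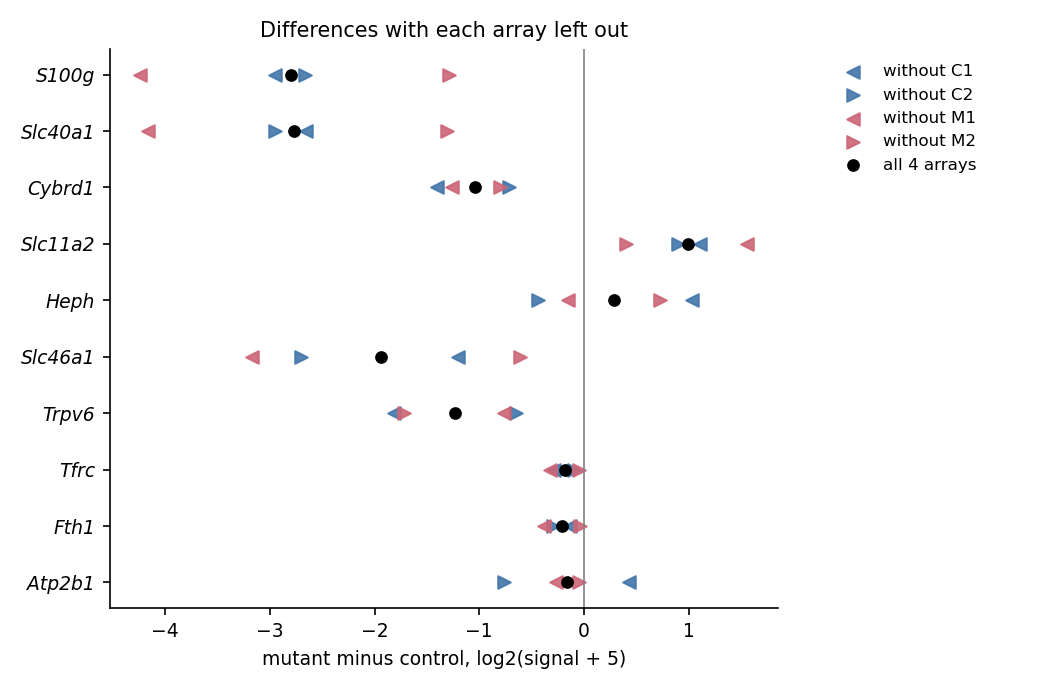
Difference between group means (mutant minus control, log2(signal + 5)) for the representative probe set of each gene with all 4 arrays (black) and with control (C1, C2) or mutant (M1, M2) replicates left out in turn. S100g moves from -4.24 without M1 to -1.29 without M2, and Heph and Atp2b1 lie on both sides of 0.

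Markers of intestinal segments also differed between arrays. Of 12 kept markers of the proximal small intestine, 9 had their lowest value in mutant replicate 2, and the mean log2 level of the list was 8.17 there against 9.37 and 9.36 in controls and 9.81 in mutant replicate 1. The sum of signals over the 13 named markers ranged from 22718 to 25564 in controls and from 22152 to 38876 in mutants. Ada, the adenosine deaminase gene that is strongly expressed in the duodenum, had signals of 1438, 4232 and 7557 in control 1, control 2 and mutant 1 but 71.7 in mutant 2. Pdx1, a transcription factor gene of the proximal gut and pancreas, had 61.6, 101 and 112 on the same arrays but 2.73 in mutant 2. Fabp1, in contrast, was at 12950 in mutant 2 and between 7833 and 11440 elsewhere.

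Among 9 kept markers of the distal small intestine and colon, 5 were highest in mutant replicate 2. The mean log2 level of this list was 7.09 and 6.77 in controls, 7.66 in mutant replicate 1 and 8.10 in mutant replicate 2, and the sum of signals over 15 named markers was 3892 and 3217 in controls, 11820 in mutant replicate 1 and 7677 in mutant replicate 2. Both mutants were thus above both controls, with mutant replicate 1 highest by the sum and mutant replicate 2 highest by the mean. Most of each sum came from Muc3 and Slc26a3. Muc3 had signals of 1560 and 1499 in controls, 7486 in mutant 1 and 4034 in mutant 2. Slc26a3 had 1575 and 1291 in controls, 3198 in mutant 1 and 2619 in mutant 2. Nts, the hormone gene neurotensin, had signals of 17.9 and 11.1 in controls, 68 in mutant 1 and 242 in mutant 2. The ileal bile acid transporter gene Slc10a2 was at or below 8.09 on every array, and the ileal bile acid binding protein gene Fabp6 at 21.7 and 49.3 in controls and 29.7 and 80.9 in mutants. These values stood beside the low S100g, Slc40a1 and Slc46a1 signals of mutant replicate 2; their part in the differences was not tested.

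**Figure D4:**
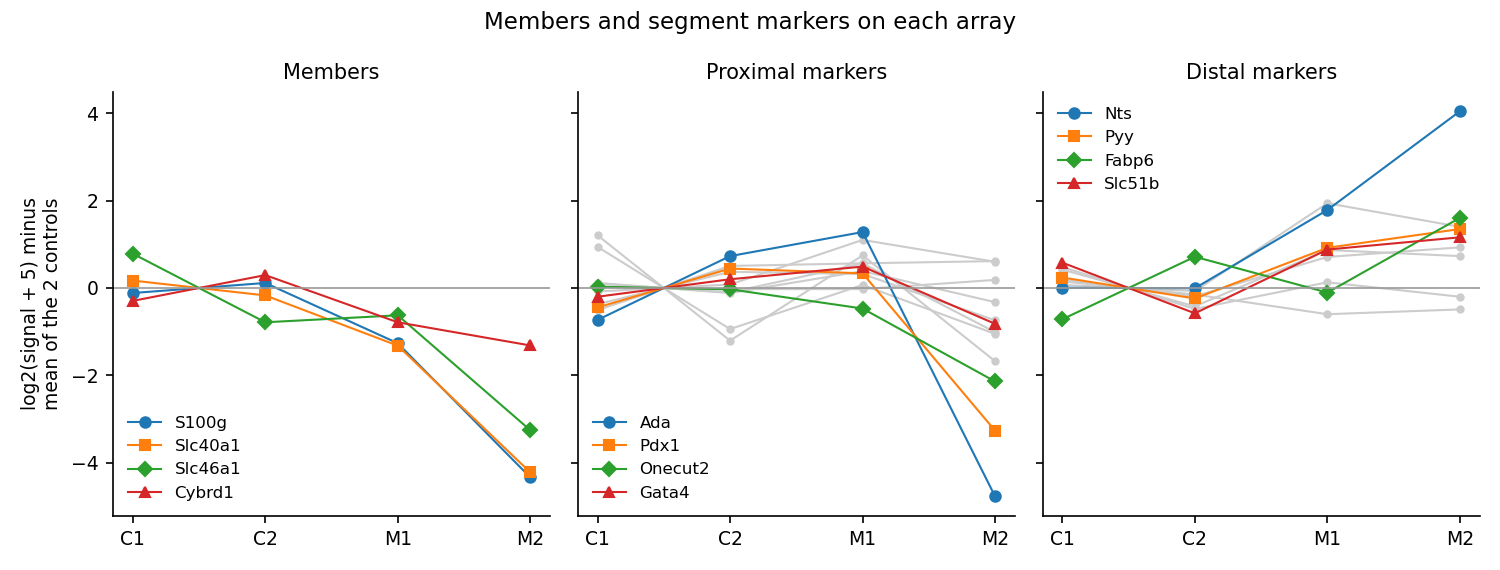
Level on each array minus the mean of both controls (log2(signal + 5)) for 4 members (left), kept markers of the proximal small intestine (middle) and of the distal small intestine and colon (right); coloured genes were picked after their values had been seen, the other markers are grey, and lines join the values of 1 gene. S100g, Slc40a1, Ada and Pdx1 are lowest in mutant replicate 2 (M2), and Nts is highest there.

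Markers of mature villus enterocytes had their highest list mean in mutant replicate 1 and their lowest in control replicate 2. Over 27 such genes the mean log2 level was 10.78 and 9.62 in controls and 11.03 and 9.90 in mutants, and 20 were higher and 7 lower in mutants by mean values; the sum of signals ranged from 53535 to 77797 in controls and from 74226 to 126935 in mutants. Of the defining genes, Apoa4 ranged from 4674 to 9176 in signal, and Alpi was at 4151 and 3249 in controls and 7520 and 1059 in mutants. Of the 27 genes, 19 had their lowest value in control replicate 2, as did Slc11a2, Heph and Atp2b1 among the members. All 23 kept proliferation markers were lower in mutants by mean values, with list means of 9.34 and 9.83 in controls and 8.41 and 8.84 in mutants and sums of signals from 20244 to 29070 and from 13188 to 14930. Macrophages, which also export iron through ferroportin, were represented by 15 kept of 18 named markers with means of 6.38 and 6.37 in controls and 6.49 and 6.33 in mutants. Their sums of signals ranged from 1720 to 2023 and from 2103 to 2675, while Cd68 was at most 36.5 on every array and Csf1r was at 633 and 588 in controls and 942 and 1068 in mutants. Red cell precursors, rich in Tfrc, were near the floor: 0 of 10 named erythroid markers passed the filter, none had a signal above 50.8 (Alas2 was at most 10.6), and the sums were 83.6 to 191.5 in controls and 63.2 to 86.7 in mutants. Stromal markers (18 kept) had means of 6.88 and 7.53 in controls and 7.43 in both mutants, with sums of 3836 to 6389 and 5117 to 6598; Acta2 ranged from 947 to 2006 and Col1a1 from 92.6 to 172 over all arrays. The 17 named acinar markers summed to 14561 and 14502 in controls, 122695 in mutant 1 and 12449 in mutant 2. Their mean log2 levels were 5.87 and 5.84 in controls, 12.4 in mutant 1 and 5.36 in mutant 2. The part of these cells in the differences was not tested beyond these values.

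The other genes of iron metabolism showed no common direction. Of 47 listed genes (storage, haem, regulators and mitochondrial import), 43 had a probe set of their own and 34 passed the filter. By mean values 18 were lower and 16 higher, with a median of -0.04 beside 0.01 over all genes; 0 passed limma's test after adjustment over all probe sets, and 2 had an unadjusted p under 0.05. Those with the smallest p began with Steap1, a gene of the metalloreductase family, with signals of 120 and 226.6 in controls and 87.9 and 65.2 in mutants and a log2 difference of -0.99 (SE 0.42, limma adjusted p = 0.786). Ncoa4, the receptor that delivers ferritin to lysosomes for iron release, differed by -1.35 (SE 0.58) with overlapping groups, and its other kept probe set by -0.17 (SE 0.50). Cp, the gene of the plasma ferroxidase ceruloplasmin, differed by -1.22 (SE 0.66), from a signal of 41.7 in mutant 1 to 6.35 in mutant 2. Flvcr2, a gene of the haem exporter family, stood at 1.14 (SE 0.50), and Mon1a, a trafficking gene tied to ferroportin at the cell surface, at 0.62 (SE 0.34). Without mutant replicate 1 the median of the 34 kept genes was -0.08 (19 lower, 15 higher), and the named genes stood at -0.90 (Steap1), -2.02 (Ncoa4), -2.09 (Cp), 0.66 (Flvcr2) and 0.72 (Mon1a).

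For calcium and vitamin D, 36 of 42 listed genes had a probe set and 25 passed the filter. By mean values 8 were lower and 17 higher, with a median of 0.18; 0 passed limma's test after adjustment over all probe sets, and 1 had an unadjusted p under 0.05. This was Anxa2, the gene of the membrane-binding protein annexin A2, with signals of 2247 and 1965 in controls and 5787 and 2711 in mutants. Its log2 difference was 0.72 (SE 0.30, limma adjusted p = 0.786), while its other kept probe set stood at -0.15 (SE 0.45). Pdzd3, a scaffold gene of the brush border, differed by 0.75 (SE 0.36) and Mcu, the mitochondrial calcium channel, by 0.63 (SE 0.29), both with mutants above both controls. Pdia3 encodes a protein disulphide isomerase that has also been described to bind a form of vitamin D. It had mean levels of 8.15 in controls and 7.15 in mutants (SE of the difference 0.45), and its other kept probe set differed by -0.43 (SE 0.49). Cldn2, the gene of a claudin that lets cations pass between cells, was at -0.97 (SE 0.48) with overlapping groups. Without mutant replicate 1 the median of the 25 kept genes was 0.09 (11 lower, 14 higher), and the named genes stood at 0.40 (Anxa2), 0.55 (Pdzd3), 0.64 (Mcu), -0.77 (Pdia3) and -1.30 (Cldn2).

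**Figure D5:**
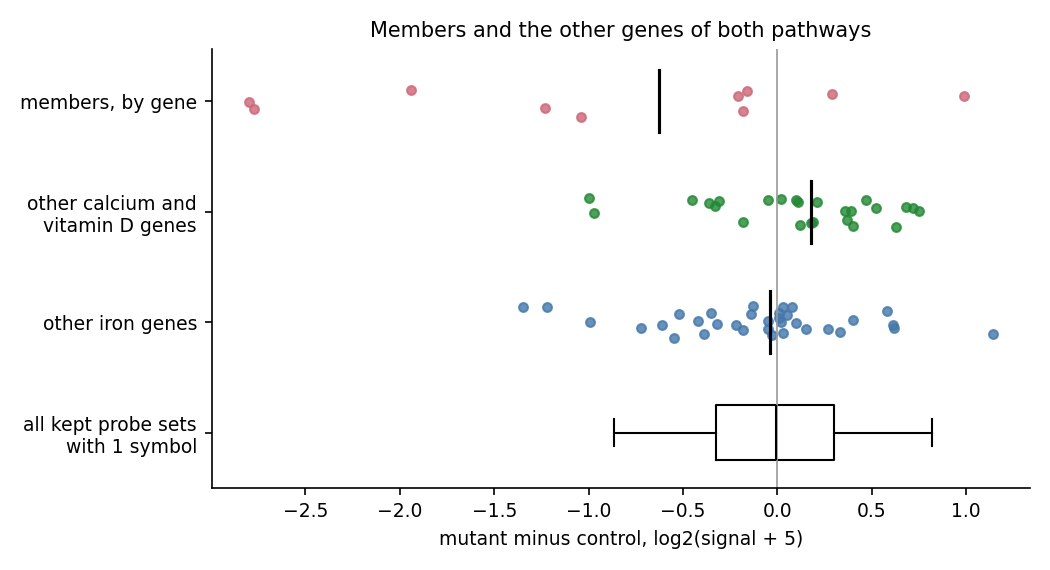
Difference between group means (mutant minus control, log2(signal + 5)) for the 10 members, 25 other calcium and vitamin D genes, 34 other iron genes (1 point a gene, bar at the median) and, as a box with whiskers from the 5th to the 95th percentile, all kept probe sets with 1 symbol. The medians are -0.63, 0.18 and -0.04 for the 3 lists; the members were chosen with their differences known, and 3 of those lower here (Tfrc, Fth1 and Atp2b1) are above 0 with the values as deposited or median centring.

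Among 11386 other genes, those whose values over the 4 arrays lay closest to S100g, Slc40a1, Cybrd1 and Trpv6 were named, after subtracting each gene's mean. The nearest to both S100g and Slc40a1 was Foxq1, a forkhead transcription factor gene, with a root mean square difference of 0.24 and 0.15 on the log2 scale. Its levels were 7.41 and 7.23 in controls and 5.69 and 3.16 in mutants. S100g was then followed by Spata5l1 (0.56) and Gkn3 (0.57), a gastrokine gene, and Slc40a1 by Etaa1 (0.48) and Spata5l1 (0.49). For Cybrd1 the nearest were Dancr (0.052), Uba6 (0.058) and Slc16a4 (0.061). All 7 of these genes had their lowest value in mutant replicate 2. For Trpv6, itself below the filter, the nearest were Smoc2 (0.045), a gene known as a marker of intestinal stem cells, Pold1 (0.13), a subunit gene of a replicative DNA polymerase, and Tk1 (0.13), the thymidine kinase gene of dividing cells. Smoc2 had levels of 7.86 and 8.97 in controls and 6.82 and 7.62 in mutants, and these 3 genes had their lowest value in mutant replicate 1, as Trpv6 did. That the genes share their lowest array with the members follows largely from how they were picked. With 4 arrays this likeness is a description only.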

How the data were processed

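Crypt RNA of 4 samples was measured on 1 array each. The authors deposited linear probe set intensities, which the submitters' processing notes credit to MAS5; the sources used here give neither its version nor its scaling target. MAS5 corrects each probe with a mismatch probe, so dim signals are noisy. Intensities plus 5 (the rounded 20th percentile) were put on the log2 scale, which understates changes of dim genes, and quantile normalized. After removal of 64 control probe sets, probe sets with a mean at or above the median (4.79) were kept, 22519 of 45037. Mutant and control were compared with limma 3.58.1 (R 4.3.3; lmFit, eBayes with intensity trend, two-sided, Benjamini-Hochberg over all kept probe sets); each SE is that of this fit. The pipeline was tested on simulated data.

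A gene was represented by its brightest probe set. Named were all members, and of the other iron and calcium genes those past the test and the 5 with the smallest p in each list, plus the 3 most similar genes of each member with non-overlapping groups and at least a 2-fold difference. Segment and marker genes named singly beyond the defining ones were chosen after their values had been seen. The members and lists were chosen with earlier results of these data known. Gene symbols of all 10 members matched RefSeq by gene identifier. Alternatives covered scaling, pseudocount, filter, variance model, replicate block, probe set choice and leaving out each array.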

Additional observations from a re-analysis of the deposited data

How the results depend on the processing

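The count of probe sets past limma's test was 0 and became 2 with the values as deposited, 102 with median centring and 1 with the replicate number as a replicate block. It ranged from 0 to 90 with an array left out, with 20 without mutant replicate 1 and 90 without mutant replicate 2; the cause was not tested. The 2 samples with the same number share only that number: the correlation across probe sets of the difference between replicates 1 and 2 in controls with that in mutants was 0.034.

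The count of lower members was 8, beside 49.3% of all genes. It was 5 for values as deposited and 5 after median centring, beside 48.9% and 39.4% of all genes. With an array left out the count ranged from 7 to 9, and the share of all genes from 47.1% to 53.3%. S100g, Slc40a1, Cybrd1, Slc46a1 and Trpv6 were lower by mean values under the other scalings and pseudocounts, and also with each array left out. Except in Slc46a1, whose groups overlap, the sign with an array left out was largely fixed, because both mutants lay below both controls. The count at least 2-fold below both controls, chosen after seeing the data, was 4 and became 2 with a pseudocount of 32, where the share over all genes fell from 2.35% to 1.14%. The genes behind it also changed with an array left out. Without control replicate 2, Cybrd1 at -0.72 and Trpv6 at -0.65 fell short of 2-fold, while Slc46a1 was at -2.70. Without mutant replicate 2, Cybrd1 at -0.80 fell short. No other iron, calcium or vitamin D gene passed under any alternative that was run for them. With 2 arrays a group, the number of arrays limits the precision.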
